A study of Mus musculus with 8 samples.

Results

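Transcripts of 10 genes of growth factor signalling in kidney repair, among 57010 genes in the count matrix, were followed across cell classes and conditions. The genes were picked by name for their known part in repair and fibrosis after injury, and all were present: *Igf1*, *Ghr*, *Tgfb1*, *Tgfbr1*, *Tgfbr2*, *Vegfa*, *Vegfb*, *Pdgfb*, *Hbegf* and *Egf*. The cells came from kidneys of male C57BL/6 mice that were uninjured and untreated (control) or were examined 1, 7 or 14 days after unilateral ischemia-reperfusion injury (IRI), a model of acute kidney injury made by clamping and releasing the renal vessels. Injured mice received entospletinib, an inhibitor of the tyrosine kinase SYK, or its vehicle, DMSO. The control mice had neither the operation nor the vehicle, so vehicle over control compares these together. Each of the 7 conditions was 1 pool of cells from 3 mice, enriched for live leukocytes by sorting. All conditions were barcoded together and divided over 8 sublibraries. With 1 pool per condition, differences between conditions have no biological replicate and were not tested. The SD given with a level is over the 8 sublibraries and measures technical error, and the 95% intervals cover counting error only.

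Growth factors act between the cell types of an organ, a ligand from one cell binding a receptor kinase on another. In the injured kidney, ligands of the EGF receptor and insulin-like growth factor 1 are known to promote tubular regrowth, and vascular endothelial growth factor (VEGF) maintains the peritubular capillaries. Platelet-derived growth factor (PDGF) and transforming growth factor β (TGF-β) act on pericytes and fibroblasts and are central to scarring, and macrophages are a known source of several of these ligands.

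Of 120281 barcodes, 79389 (66.0%) passed the limits on quality. Cells were classed by how many distinct markers of a class they held, at least 2, and are called gated cells because the names rest on these markers alone. Macrophage-gated cells were the most numerous, at 22898 cells and between 1879 and 7115 per condition, and all 9 macrophage markers had counts in each condition. Their median depth was between 2263 and 4018 counts per cell in 6 conditions and 920.5 in entospletinib day 14. A further 13277 cells held markers of more than 1 class and were set aside as mixed, and 4262 stayed unassigned. The sort enriched leukocytes, so the 7598 endothelial-gated, 2202 proximal tubule-gated and 555 loop of Henle-gated cells are those that came through it. Fewer cells of a type and less RNA per cell cannot be told apart in the totals of a pool, so levels are given within classes, as CPM, the counts of a gene scaled to a fixed total for the class.

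The windows upstream of the members called most often in macrophage-gated cells, *Vegfa* (in 6 comparisons), *Egf* (4) and *Tgfbr1* (3), are shown so that the bases next to the start can be read beside the expression values. Each holds the 250 bases before the outermost RefSeq start (build GRCm38.p6), 5′ to 3′ on the strand of the gene. Capitals mark GGGCGG or its reverse complement CCGCCC, the core of the GC box that SP1 family factors bind. The *Tgfbr1* window lies at chr4:47352972-47353221 on the plus strand, the *Vegfa* window at chr17:46032378-46032627 on the minus strand and the *Egf* window at chr3:129755323-129755572 on the minus strand.
Tgfbr1: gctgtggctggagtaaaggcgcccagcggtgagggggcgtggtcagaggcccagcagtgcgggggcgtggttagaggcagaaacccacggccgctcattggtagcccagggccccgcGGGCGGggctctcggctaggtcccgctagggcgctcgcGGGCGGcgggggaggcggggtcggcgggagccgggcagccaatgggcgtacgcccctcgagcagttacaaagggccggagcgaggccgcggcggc
Vegfa: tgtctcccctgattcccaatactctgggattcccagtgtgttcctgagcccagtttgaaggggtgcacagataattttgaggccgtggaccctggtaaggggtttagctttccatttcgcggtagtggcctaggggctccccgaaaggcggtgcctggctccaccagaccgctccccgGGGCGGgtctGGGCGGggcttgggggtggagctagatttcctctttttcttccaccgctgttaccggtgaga
Egf: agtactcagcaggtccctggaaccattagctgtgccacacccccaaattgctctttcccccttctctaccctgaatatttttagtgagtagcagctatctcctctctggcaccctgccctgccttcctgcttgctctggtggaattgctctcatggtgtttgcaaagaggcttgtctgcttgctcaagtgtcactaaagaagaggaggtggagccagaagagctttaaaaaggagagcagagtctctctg

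The *Tgfbr1* and *Vegfa* windows each held the motif at 2 places and the *Egf* window at none. Their GC contents were 74.8%, 59.2% and 50.4%, against a median of 52.4% over all windows of this length. The motif was in 5 of the 8 members with a window (also *Ghr*, *Tgfb1* and *Vegfb*) and in 32.7% of 32851 windows. ACGTG, searched on both strands, is a form of the core of the element that hypoxia-inducible factors bind. It was in none of the 8 and in 16.6% of all windows. The form GCGTG was not searched and can be read in the *Tgfbr1* window, so these values do not cover all such cores. Both motifs were picked after the expression values had been seen, and a match or its absence describes only the letters of these windows.

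The members differed in the class where they were highest, by the mean CPM over the conditions with at least 20 cells of that class. *Tgfbr1*, the type I TGF-β receptor, was at 1688 ± 64.6 CPM (SD over sublibraries) in macrophage-gated cells, 4.90-fold above monocyte-gated cells at 344 ± 33.4. *Igf1* was highest in macrophage-gated cells at 76.8 ± 4.55 CPM, ahead of endothelial-gated cells at 54.7 ± 5.93. In the control alone the order was the reverse, with 113 ± 19.8 CPM in endothelial-gated and 46.4 ± 7.45 CPM in macrophage-gated cells. By the mean over conditions *Igf1* was at 27.7 ± 46.6 CPM in stroma-gated cells and between 1.25 and 4.64 in the other classes. Means of stroma-gated cells cover only vehicle days 1 and 14 (31 and 42 cells), the pools with at least 20 of these cells. *Egf*, a tubular growth factor, was highest in loop of Henle-gated cells at 4088 ± 572 CPM, 13.5-fold above distal tubule- or collecting duct-gated cells at 303 ± 189. *Ghr*, the growth hormone receptor, was highest in proximal tubule-gated cells at 1031 ± 201 CPM, followed by stroma-gated (371 ± 366) and loop of Henle-gated cells (362 ± 88.2), which did not differ beyond their spread. *Tgfb1*, the TGF-β1 ligand, was highest in monocyte-gated cells at 351 ± 32.5 CPM, followed by macrophage-gated cells at 203 ± 7.98.

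For the remaining members the leading classes were not separated. *Pdgfb*, the B chain of PDGF, was at 217 ± 6.25 CPM in macrophage-gated and 205 ± 11.4 CPM in endothelial-gated cells, and at 64.1 ± 21.7 CPM in proximal tubule-gated cells, the class that followed. *Tgfbr2*, the type II TGF-β receptor, was at 501 ± 30.0 CPM in B cell-gated, 480.0 ± 7.31 in macrophage-gated and 441 ± 17.3 in endothelial-gated cells. *Vegfa* was at 177 ± 59.1 CPM in neutrophil-gated cells, with distal (153 ± 41.0), proximal (138 ± 29.1) and loop of Henle-gated cells (115 ± 43.4) within reach of that spread. Macrophage-gated cells averaged 36.5 ± 4.34 CPM of *Vegfa* and B cell-gated cells 3.66 ± 4.93. *Hbegf*, heparin-binding EGF-like growth factor, was at 102 ± 57.5 CPM in loop of Henle-gated and 77.4 ± 23.1 CPM in proximal tubule-gated cells. *Vegfb*, a ligand of FLT1, had few counts in any class, with 20.6 ± 10.4, 18.3 ± 9.68 and 17.8 ± 6.52 CPM in the tubule classes.

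**Figure D1:**
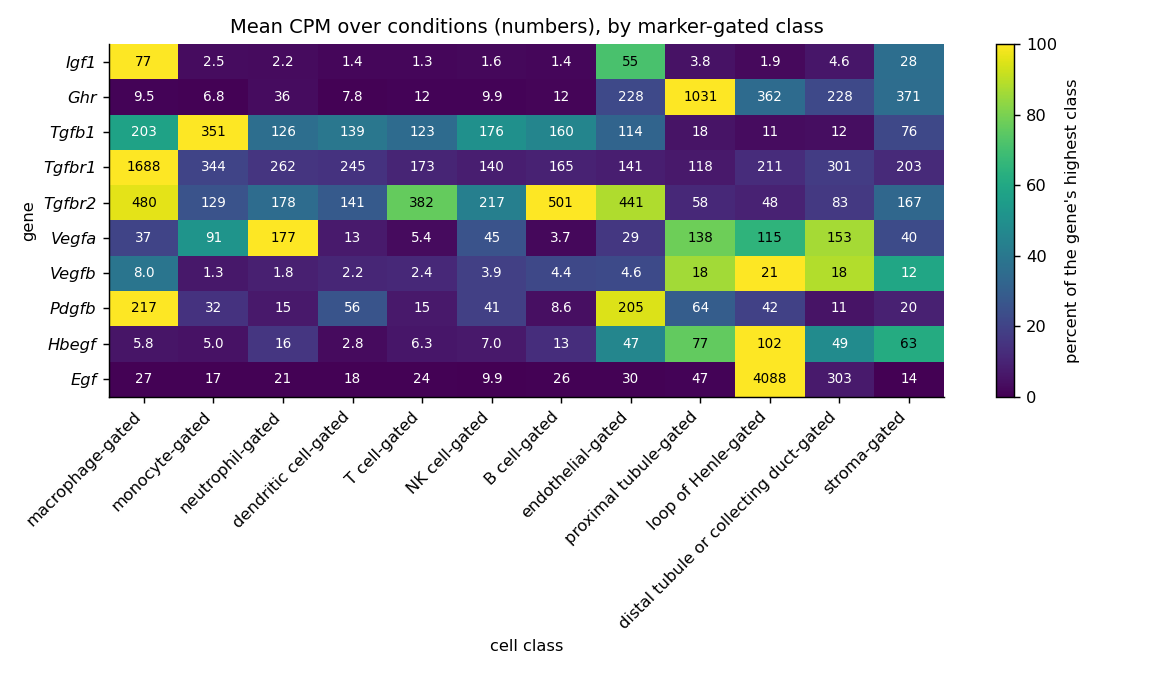
Mean CPM of each member (rows) in 12 marker-gated cell classes (columns), averaged over the conditions with at least 20 cells of the class. For stroma these are vehicle days 1 and 14 only. The number is the CPM and the colour the percent of the gene's highest class. *Tgfbr1* (1688 CPM) and *Igf1* peak in macrophage-gated cells, *Egf* (4088 CPM) in loop of Henle-gated cells and *Ghr* (1031 CPM) in proximal tubule-gated cells.

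Macrophage-gated cells were compared between conditions in 6 pairs of pools: vehicle over control and entospletinib over vehicle, each at days 1, 7 and 14. A gene was compared when it averaged at least 25 CPM over both pools. It was called when its log2 ratio, less the median log2 ratio of these genes, was at least 1 in size (2-fold) and on the same side in all 8 sublibraries. The median itself was 0.16, -0.31 and -0.08 in vehicle over control and -0.09, 0.36 and 0.10 in entospletinib over vehicle, and the relative log2 ratios below leave it out. In vehicle over control, 2 of 7 members were called higher and 2 lower at day 1, against 7.81% and 6.57% of all genes compared. At day 7, 1 of 7 was called higher and 2 lower (all genes 4.76% and 1.75%), and at day 14, 2 of 7 higher and 2 lower (3.6% and 1.6%). These comparisons share the control pool. In entospletinib over vehicle, none of 6 members was called higher and 1 lower at day 1 (all genes 0.34% and 1%). At day 7, 1 of 7 was called higher and 1 lower (0.315% and 3.09%), and at day 14, none of 6 higher and 1 lower (0.81% and 1.53%). *Ghr*, *Vegfb* and *Hbegf* did not reach 25 CPM in any comparison. Of the 15 calls, 10 were of *Vegfa* (6) and *Egf* (4), among them every call in entospletinib over vehicle, and in each of these the gene averaged 25 CPM only through the pool where it was higher. With a filter of 50 CPM the 4 *Egf* calls and 4 of the 6 *Vegfa* calls were lost, so the counts describe single genes and are not read against the share of all genes.

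**Figure D2:**
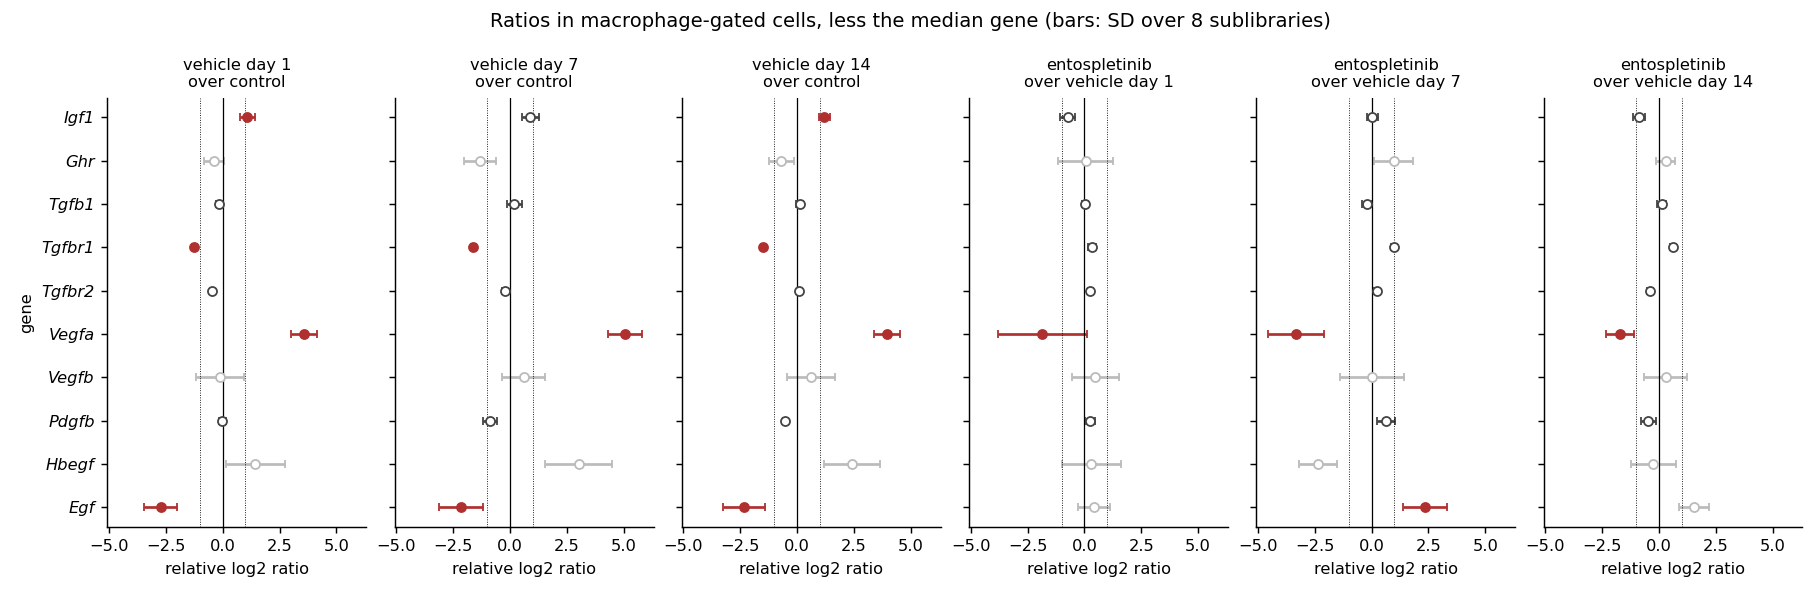
Relative log2 ratio of each member in macrophage-gated cells for the 6 comparisons (bars, SD over 8 sublibraries; dotted lines, a 2-fold ratio); filled red points were called, and grey points were below 25 CPM. *Vegfa* was called in all 6 panels, higher in vehicle over control and lower in entospletinib over vehicle, and in each it reached a mean of 25 CPM only through the vehicle pool.

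*Igf1*, the ligand of the IGF1 receptor and a product of tissue macrophages, was at 46.4 ± 7.45 CPM in control, 110.1 ± 17.8, 69.0 ± 10.8 and 101 ± 4.25 CPM in vehicle and 62.5 ± 12.0, 90.1 ± 15.5 and 58.7 ± 11.8 CPM in entospletinib at days 1, 7 and 14 in macrophage-gated cells. The control was the lowest pool and vehicle days 1 and 14 the highest, with entospletinib below vehicle at these days and above it at day 7. *Igf1* was called higher in vehicle than in control at day 1 (relative log2 ratio 1.08 ± 0.32) and day 14 (1.20 ± 0.24), and its ratio at day 7 was 0.89 ± 0.37. The day 1 call was lost without sublibrary s3, with a ratio of 0.96. It was also lost with mixed cells kept, with counts thinned, on the injury side of the macrophages and in cells with no marker of another class, and the day 14 call was lost in the last 2 of these. Entospletinib over vehicle gave -0.73 ± 0.34, 0.02 ± 0.25 and -0.88 ± 0.28, none of them called. With 500 counts drawn at random from each cell and shallower cells left out (thinning), 3.75% of macrophage-gated cells had an *Igf1* count (13.5% unthinned, median depth 2529 counts). The same was true of 0 of 2054 B cell-gated cells, which allows a share of up to 0.179% with a count at this depth. Unthinned, 0.231% of B cell-gated cells had one (median depth 1516.5).

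Endothelial-gated cells, the other class with *Igf1*, held 113 ± 19.8 CPM in control, 37.9 ± 15.9, 48.8 ± 36.7 and 67.6 ± 45.2 CPM in vehicle and 43.4 ± 14.7, 44.6 ± 10.8 and 27.5 ± 19.8 CPM in entospletinib at days 1, 7 and 14. Here the control was the highest pool, 2.98-fold above vehicle day 1 (95% counting interval 2.52 to 3.53, 8 of 8 sublibraries), which is the opposite side from macrophage-gated cells. Outside macrophage-gated cells the folds given are plain ratios of CPM with no centring, and whether they differed between classes was not tested. The vehicle pools at days 7 and 14 hold 205 and 363 of these cells, and 6 of 8 sublibraries were below control at each.

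*Ghr*, through which growth hormone induces IGF1, was at 902 ± 119 CPM in control, 803 ± 344, 804 ± 386 and 1271 ± 639.6 CPM in vehicle and 883 ± 320.2, 1392 ± 522 and 1165 ± 202 CPM in entospletinib at days 1, 7 and 14 in proximal tubule-gated cells. The spread of each vehicle pool reached the control. At day 7 entospletinib was 1.73-fold above vehicle (counting interval 1.55 to 1.94), on that side in 7 of 8 sublibraries. In endothelial-gated cells *Ghr* ranged from 189.9 ± 26.3 CPM in control to 285 ± 45.3 CPM in entospletinib day 1. In macrophage-gated cells it lay between 4.10 and 12.8 CPM. After thinning, 0.464% of macrophage-gated cells had a *Ghr* count (2.46% unthinned) against 0.633% of B cell-gated cells (1.48% unthinned). The share did not set macrophage-gated cells above B cell-gated cells, and whether the counts are expression or RNA of other cells was not tested.

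*Tgfb1* was near the same level in all pools of macrophage-gated cells, at 201 ± 19.4 CPM in control, 198 ± 14.3, 183 ± 23.9 and 204 ± 12.2 CPM in vehicle and 192 ± 19.2, 202 ± 16.6 and 239 ± 27.0 CPM in entospletinib at days 1, 7 and 14. None of its 6 relative log2 ratios, between -0.22 and 0.18, was called. In monocyte-gated cells, its highest class, it was at 319 ± 96.7 CPM in control, 403 ± 26.0, 359 ± 89.3 and 356 ± 63.3 CPM in vehicle and 358 ± 53.2, 322 ± 93.7 and 341 ± 120.2 CPM in entospletinib, and the spread of the control reached into every other pool.

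*Tgfbr1*, the kinase that phosphorylates SMAD2 and SMAD3, was at 3079 ± 101 CPM in control, 1445 ± 96.4, 807 ± 75.4 and 1035 ± 48.0 CPM in vehicle and 1708 ± 152, 2041 ± 108 and 1703 ± 169 CPM in entospletinib at days 1, 7 and 14 in macrophage-gated cells. The control lay above all injured pools, and at each day the entospletinib pool lay above the vehicle pool. *Tgfbr1* fell in vehicle relative to control at each day, with relative log2 ratios of -1.26 ± 0.11, -1.62 ± 0.11 and -1.49 ± 0.08. Entospletinib over vehicle gave 0.33 ± 0.16, 0.98 ± 0.13 and 0.62 ± 0.13, each positive in all 8 sublibraries and under the 2-fold threshold. The vehicle calls of days 1 and 7 were lost in cells with no marker of another class, and that of day 1 on the resident side. With no marker of another class the ratios were -1.08 ± 3.25 and -0.93 ± 0.74. They rest on 67 and 108 vehicle and 154 control cells, few for a rule that needs all 8 sublibraries. After thinning, 46.8% of macrophage-gated cells had a count (80.6% unthinned) against 6.57% of B cell-gated cells (19.3% unthinned). The study's text names *Tgfbr1* among genes of resident macrophages, and it is not in the marker lists by which macrophage-gated cells were split into sides.

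Other mononuclear phagocytes held less *Tgfbr1*. Dendritic cell-gated cells were at 315 ± 65.1 CPM in control, 206 ± 49.3, 142 ± 8.82 and 148 ± 31.6 CPM in vehicle and 268 ± 61.5, 330.5 ± 107 and 309 ± 118 CPM in entospletinib. Vehicle day 7 was 2.21-fold below control (counting interval 1.89 to 2.60), and entospletinib was above vehicle 2.32-fold at day 7 (1.96 to 2.76) and 2.09-fold at day 14 (1.78 to 2.46), each in 8 of 8 sublibraries. For comparison, B cell-gated cells were at 181 ± 87.8 CPM in control. At days 7 and 14 they were at 133 ± 106 and 174 ± 59.0 CPM in vehicle and 149 ± 57.7 and 197 ± 55.1 CPM in entospletinib. The part of macrophage RNA in the *Tgfbr1* values of other classes was not tested. Monocyte-gated cells were at 530.5 ± 130.1 CPM in control, 399 ± 34.7, 228 ± 128 and 293 ± 81.2 CPM in vehicle and 341 ± 52.9, 342 ± 93.5 and 277 ± 107 CPM in entospletinib, with vehicle day 7 2.33-fold below control (counting interval 1.91 to 2.84, 8 of 8 sublibraries). In T cell-gated cells vehicle was 0.579-, 0.642- and 0.649-fold of control at days 1, 7 and 14 (8, 5 and 8 of 8 sublibraries). B cell-gated cells were at 0.581-, 0.732- and 0.960-fold and endothelial-gated cells at 0.727-, 0.683- and 1.06-fold. Neutrophil-gated cells were at 1.22-, 1.06- and 1.58-fold. The 3 tubule classes were not alike at day 1. In proximal tubule-gated cells *Tgfbr1* in vehicle day 1 was 0.790-fold of control (112 ± 58.1 against 142 ± 64.7 CPM, counting interval 0.629 to 0.983), and 4 of 8 sublibraries were on that side. In distal tubule- or collecting duct-gated cells *Tgfbr1* was 2.36-fold higher in vehicle day 1 than in control (497 ± 97.2 against 210.3 ± 111 CPM, counting interval 1.96 to 2.86, 8 of 8 sublibraries). In loop of Henle-gated cells it was 2.74-fold higher (347 ± 196 against 127 ± 50.2 CPM, 1.97 to 3.85, 8 of 8 sublibraries).

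*Tgfbr2*, the receptor chain that binds the ligand first, was at 533 ± 27.2 CPM in control, 437 ± 18.5, 369 ± 25.0 and 536 ± 15.5 CPM in vehicle and 495 ± 30.4, 553 ± 27.3 and 437 ± 34.7 CPM in entospletinib at days 1, 7 and 14 in macrophage-gated cells. Vehicle day 7 was the lowest pool, and none of the ratios was called, the largest in size being -0.45 ± 0.08 in vehicle day 1 over control. Endothelial-gated cells held 360.04 ± 40.2 CPM in control, 642 ± 29.0, 392 ± 79.7 and 536 ± 67.3 CPM in vehicle and 494 ± 33.8, 384 ± 31.9 and 281 ± 43.8 CPM in entospletinib. Vehicle day 1 was 1.78-fold above control (counting interval 1.69 to 1.88) and vehicle day 14 1.49-fold (1.36 to 1.63), both in 8 of 8 sublibraries. Vehicle was above entospletinib 1.30-fold at day 1 (counting interval 1.22 to 1.38) and 1.91-fold at day 14 (1.67 to 2.19), again in 8 of 8 sublibraries. At day 7 entospletinib over vehicle was 0.979-fold (0.852 to 1.13).

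**Figure D3:**
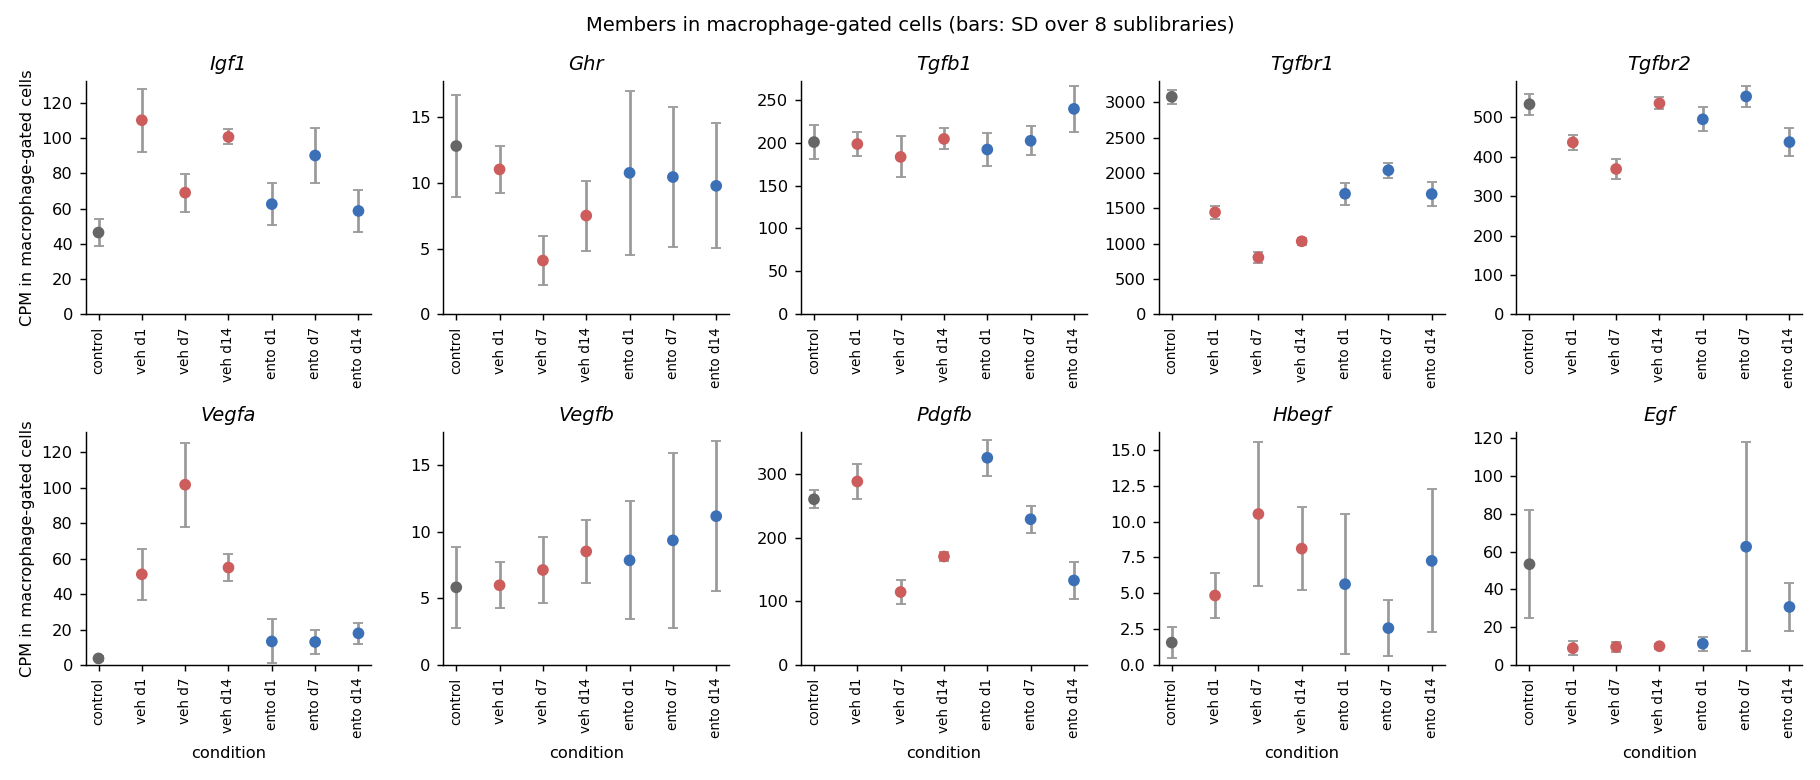
CPM of the 10 members in macrophage-gated cells of each condition (points, pool value; bars, SD over 8 sublibraries). *Tgfbr1* is highest in control at 3079 CPM, and *Vegfa* is at 51.2 to 102 CPM in vehicle against 3.75 in control and 13.03 to 17.9 in entospletinib.

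*Vegfa*, the main growth factor of capillary endothelium and a target of hypoxia-inducible factors, was at 3.75 ± 1.60 CPM in control, 51.2 ± 14.2, 102 ± 23.7 and 55.0 ± 7.47 CPM in vehicle and 13.3 ± 12.4, 13.03 ± 6.58 and 17.9 ± 5.97 CPM in entospletinib at days 1, 7 and 14 in macrophage-gated cells. All vehicle pools lay above all entospletinib pools, and these above the control. *Vegfa* rose in vehicle relative to control at each day, with relative log2 ratios of 3.59 ± 0.58, 5.06 ± 0.74 and 3.94 ± 0.57. It was called lower in entospletinib than in vehicle at each day, with -1.85 ± 1.97, -3.32 ± 1.23 and -1.71 ± 0.60. The SD of the day 1 ratio in entospletinib over vehicle was as large as the ratio. In each comparison *Vegfa* passed the 25 CPM limit only through the vehicle pool, and with a limit of 50 CPM the calls of days 1 and 14 were lost in both kinds of comparison. Both kinds of comparison share the vehicle pools and are not independent. The counts sat in few cells, 36 of 1879 cells holding at least 50% of the 869 counts of vehicle day 7. After thinning, 0.0851% of control macrophage-gated cells had a *Vegfa* count, 2.24%, 3.25% and 1.73% of those in vehicle and 0.515%, 0.432% and 0.621% of those in entospletinib. Over all conditions the share was 1.25% (4.28% unthinned), against 0.0974% of B cell-gated cells (0.509% unthinned).

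Markers of classes with more *Vegfa* were present in the macrophage gate. The 10 neutrophil markers summed to between 168 and 294 CPM there, 0.805% to 2.01% of their level in neutrophil-gated cells, and all 10 had counts in each condition. The 11 monocyte markers summed to 259.9 CPM in control, 798, 638 and 567 CPM in vehicle and 300.1, 570.2 and 322 CPM in entospletinib, 7.75% to 23.2% of their level in monocyte-gated cells, with *Ly6c2* at 0 in entospletinib day 7. The part of these cells in the *Vegfa* ratios was not tested. Among the 67 to 798 macrophage-gated cells per condition with no marker of another class, *Vegfa* was called in 2 of the 6 comparisons, vehicle day 14 over control and entospletinib over vehicle at day 7. The relative log2 ratios there were 0.56 ± 5.05, 3.80 ± 1.72 and 2.97 ± 1.35 in vehicle over control and -0.87 ± 4.90, -3.95 ± 1.62 and -2.05 ± 1.53 in entospletinib over vehicle at days 1, 7 and 14, on the same side as in all macrophage-gated cells, with the day 1 ratios smaller than their SD.

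For *Vegfa*, monocyte-gated cells had 26.9 ± 29.5 CPM in control, 67.5 ± 23.2, 393 ± 156 and 23.0 ± 25.0 CPM in vehicle and 30.5 ± 10.8, 50.6 ± 36.8 and 47.6 ± 38.3 CPM in entospletinib at days 1, 7 and 14. Vehicle day 7 stood above the other pools, 14.6-fold over control (counting interval 8.85 to 26.0) and 7.76-fold over entospletinib day 7 (5.39 to 11.5), each in 8 of 8 sublibraries. Neutrophil-gated cells had 248 ± 346 CPM in control, 82.6 ± 9.24, 313 ± 65.6 and 274 ± 36.7 CPM in vehicle and 77.1 ± 20.9, 139 ± 164 and 106 ± 112 CPM in entospletinib, from 68 cells in control and 130 and 67 in the later entospletinib pools. At day 1 their entospletinib over vehicle was 0.934-fold (counting interval 0.804 to 1.08), at day 7 0.443-fold (0.305 to 0.624, 6 of 8 sublibraries lower) and at day 14 0.386-fold (0.154 to 0.800, 7 of 8). In distal tubule- or collecting duct-gated cells *Vegfa* was at 234 ± 188 CPM in control, 84.7 ± 36.4, 137 ± 92.1 and 55.1 ± 28.4 CPM in vehicle and 227 ± 56.0, 215 ± 63.8 and 121 ± 71.7 CPM in entospletinib. Entospletinib day 1 was 2.68-fold above vehicle day 1 there (counting interval 1.94 to 3.73, 8 of 8 sublibraries), the opposite side from macrophage-gated cells. Other classes were on that side too at day 1: loop of Henle-gated (4.38-fold, 7 of 8), proximal tubule-gated (1.82-fold, 6 of 8) and endothelial-gated cells (1.56-fold, 7 of 8). At day 7 these were at 2.05-, 1.91- and 0.652-fold. At day 14 endothelial-gated cells were at 4.12-fold (8 of 8) and monocyte-gated cells at 2.07-fold (7 of 8). Dendritic cell-gated cells were at 0.610-, 0.195- and 0.635-fold at days 1, 7 and 14. *Vegfb*, its relative, was between 5.84 and 11.2 CPM in macrophage-gated cells of all conditions, with no pool outside the spread of the others.

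*Pdgfb*, which recruits pericytes to vessels, was at 260.0 ± 14.0 CPM in control, 288 ± 27.3, 115 ± 19.1 and 170.2 ± 7.48 CPM in vehicle and 325 ± 28.0, 229 ± 21.1 and 133 ± 29.5 CPM in entospletinib at days 1, 7 and 14 in macrophage-gated cells. Day 1 was the highest time in both treatments and vehicle day 7 the lowest pool. None of its ratios was called, the largest in size being -0.87 ± 0.31 in vehicle day 7 over control and 0.64 ± 0.38 in entospletinib over vehicle at day 7. Endothelial-gated cells had 166 ± 17.6 CPM in control, 363 ± 50.7, 148 ± 38.8 and 149 ± 24.5 CPM in vehicle and 296 ± 31.9, 205 ± 24.4 and 111 ± 17.9 CPM in entospletinib. Vehicle day 1 was 2.18-fold above control there (counting interval 2.02 to 2.35, 8 of 8 sublibraries). Proximal tubule-gated cells had 26.1 ± 12.8 CPM in control, 52.7 ± 23.3, 38.1 ± 22.3 and 186 ± 128 CPM in vehicle and 70.5 ± 39.1, 37.1 ± 28.2 and 37.9 ± 33.1 CPM in entospletinib. Vehicle day 14, with 108 cells, was 7.15-fold above control (counting interval 5.16 to 9.86, 8 of 8 sublibraries) and 4.92-fold above entospletinib day 14 (3.06 to 8.14, 6 of 8 sublibraries).

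*Hbegf*, a membrane-anchored ligand of the EGF receptor, was at 25.3 ± 8.62 CPM in control, 96.0 ± 85.3, 19.0 ± 23.0 and 235 ± 114 CPM in vehicle and 62.2 ± 58.5, 40.9 ± 25.7 and 63.7 ± 38.6 CPM in entospletinib at days 1, 7 and 14 in proximal tubule-gated cells. Vehicle day 14 was the highest pool, 9.28-fold above control (counting interval 6.83 to 12.6, 8 of 8 sublibraries) and 3.68-fold above entospletinib day 14 (2.51 to 5.47, 7 of 8 sublibraries). Loop of Henle-gated cells were at 52.1 ± 82.3 CPM in control, 126 ± 111, 53.3 ± 95.4 and 119 ± 165 CPM in vehicle and 291 ± 264, 50.0 ± 39.9 and 22.4 ± 27.7 CPM in entospletinib. Entospletinib day 1 was the highest of these, 2.31-fold above vehicle day 1 (counting interval 1.56 to 3.46, 6 of 8 sublibraries), with an SD close to its level. In macrophage-gated cells *Hbegf* was at 1.57 ± 1.06 CPM in control, 4.85 ± 1.56, 10.5 ± 4.99 and 8.12 ± 2.91 CPM in vehicle and 5.64 ± 4.90, 2.58 ± 1.93 and 7.26 ± 4.98 CPM in entospletinib, too low to be compared by the rule. After thinning, 0.248% of macrophage-gated cells had a count (95% interval 0.187% to 0.321%) and 0.195% of B cell-gated cells (up to 0.498%).

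*Egf*, which the thick ascending limb makes as a membrane-bound precursor, was at 10271 ± 2174 CPM in control, 167 ± 259.8, 2948 ± 2753 and 336 ± 299.9 CPM in vehicle and 652 ± 605, 7728 ± 2246 and 6517 ± 1984 CPM in entospletinib at days 1, 7 and 14 in loop of Henle-gated cells. Control and the later entospletinib pools were high and both day 1 pools were low. Vehicle was below control 61.4-fold at day 1 (counting interval 46.9 to 82.1), 3.48-fold at day 7 (3.16 to 3.85) and 30.6-fold at day 14 (23.0 to 41.6), each in 8 of 8 sublibraries. Entospletinib was above vehicle 3.89-fold at day 1 (2.85 to 5.40, 6 of 8 sublibraries), 2.62-fold at day 7 (2.38 to 2.90, 7 of 8) and 19.4-fold at day 14 (14.6 to 26.5, 8 of 8). These values rest on 27 to 145 cells per pool. *Umod*, uromodulin of the same segment and a marker of the gate, lay between 2602 and 3789 CPM in the same cells. *Slc12a1*, the transporter NKCC2 and also a gate marker, was at 12004 CPM in control, 1521, 6809 and 4364 CPM in vehicle and 1773, 11009 and 9104 CPM in entospletinib. Its order of pools was that of *Egf* except that vehicle day 14 and entospletinib day 1 changed places. In distal tubule- or collecting duct-gated cells *Egf* was at 688 ± 271 CPM in control, 30.1 ± 27.3, 549.97 ± 1024 and 21.0 ± 39.3 CPM in vehicle and 105 ± 95.6, 513 ± 169 and 215 ± 213 CPM in entospletinib.

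**Figure D4:**
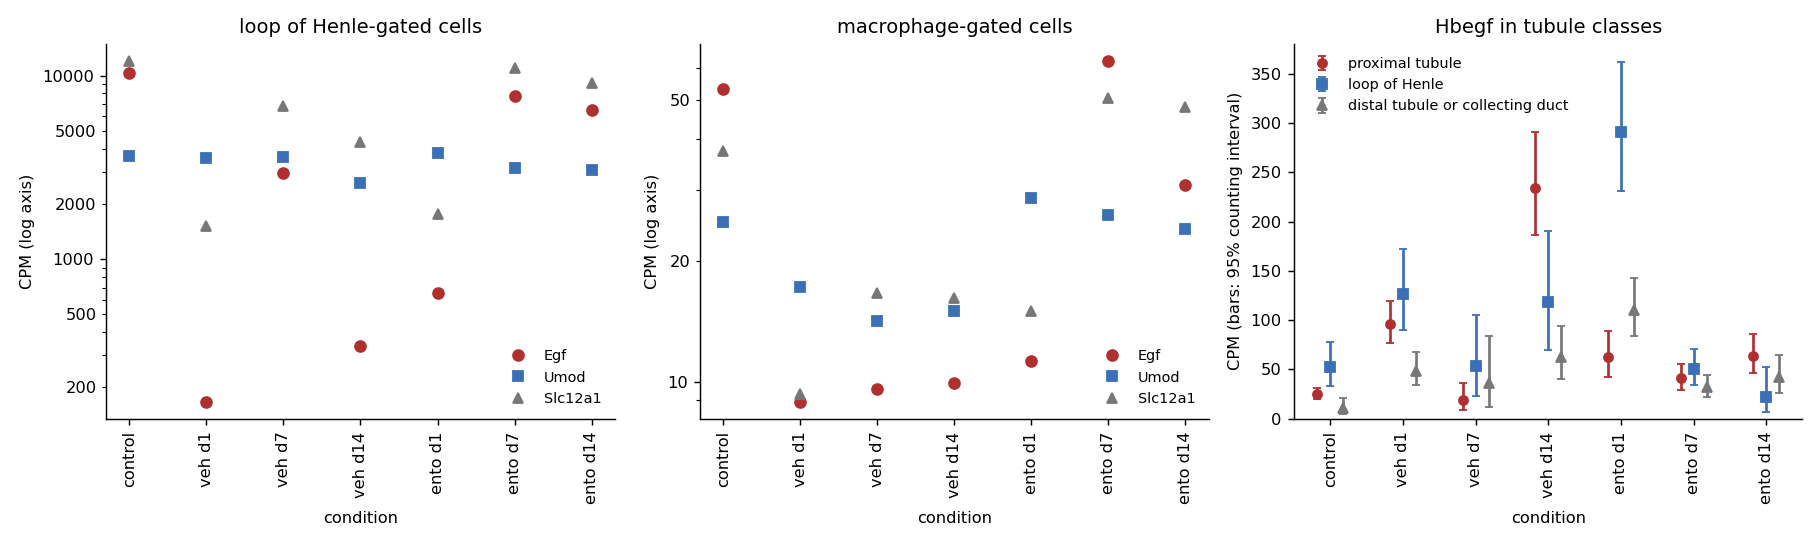
*Egf* and the loop of Henle markers *Umod* and *Slc12a1* in loop of Henle-gated and macrophage-gated cells of each condition (CPM, log axes), and *Hbegf* in 3 tubule classes (CPM; bars, 95% counting interval). In loop of Henle-gated cells *Egf* spans 167 to 10271 CPM, *Slc12a1* 1521 to 12004 and *Umod* 2602 to 3789. *Umod* and *Slc12a1* are markers of this gate.

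*Egf* counts were also found in macrophage-gated cells, at 53.3 ± 28.5 CPM in control, 8.94 ± 3.71, 9.60 ± 2.76 and 9.96 ± 1.25 CPM in vehicle and 11.3 ± 3.73, 62.6 ± 55.2 and 30.7 ± 12.9 CPM in entospletinib. *Egf* was called lower in vehicle than in control at each day (-2.73 ± 0.74, -2.15 ± 0.96 and -2.34 ± 0.91) and higher in entospletinib than in vehicle at day 7 (2.34 ± 0.97). In each of these *Egf* passed the 25 CPM limit only through the pool where it was higher, and with a limit of 50 CPM all 4 calls were lost. All 4 were also lost on the injury side and in cells with no marker of another class. In control these groups held 62 and 154 cells, few for a rule that needs the same side in every sublibrary. The losses therefore cannot tell a smaller ratio from too few counts. With no marker of another class, vehicle over control gave -3.53 ± 6.20, -0.37 ± 1.69 and -1.78 ± 1.65 at days 1, 7 and 14. Entospletinib over vehicle at day 7 gave -0.33 ± 1.05 there. The day 1 call and that of entospletinib over vehicle were lost after thinning, and these and the day 14 call with a gate by likelihood. After thinning, 0.964% of macrophage-gated cells had an *Egf* count (4.09% unthinned), against 1.66% of B cell-gated cells (3.56% unthinned). The share did not set macrophage-gated cells above B cell-gated cells, and whether the counts are expression or RNA of other cells was not tested. Both shares pool all conditions, in which the 2 classes had unlike numbers of cells. The level in macrophage-gated cells was 0.326% to 5.34% of that in loop of Henle-gated cells of the same pool, with 0.394% to 0.823% for *Umod* and 0.244% to 0.848% for *Slc12a1*. The 5 loop of Henle markers summed to 68.7 CPM in control, 30.6, 34.4 and 33.9 CPM in vehicle and 47.2, 83.2 and 78.0 CPM in entospletinib in macrophage-gated cells, with *Cldn16* at 0 in entospletinib day 14. Counts of *Egf* per count of *Umod* were 2.14 in macrophage-gated and 2.83 in loop of Henle-gated cells of the control (counting intervals 1.86 to 2.47 and 2.67 to 2.99). They were 2.41 and 2.46 in entospletinib day 7 (2.03 to 2.87 and 2.33 to 2.59), and 0.519 and 0.0470 in vehicle day 1 (0.400 to 0.670 and 0.0350 to 0.0620). In vehicle days 7 and 14 they were 0.678 and 0.665 in macrophage-gated against 0.820 and 0.129 in loop of Henle-gated cells, and in entospletinib days 1 and 14 0.395 and 1.28 against 0.172 and 2.12. The counting intervals of the 2 classes overlapped in vehicle day 7 and entospletinib day 7 and in none of the other 5 conditions. In entospletinib day 7, 2 of 2315 cells held at least 50% of the 461 *Egf* counts, 1 of them 177. The part of loop of Henle RNA in the *Egf* ratios was not tested.

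In the pathways around the members, 98 further genes were counted in 6 lists. The VEGF list (12 genes, 4 compared) had 3 genes called higher in vehicle over control at each day, with a median relative log2 ratio of 2.10, 1.60 and 1.32 against 0 for all genes. Of all genes compared, 7.81%, 4.76% and 3.6% were called higher. The 3 genes of the list were *Nrp2*, a co-receptor of VEGF and semaphorins (2.54, 1.80 and 1.87), *Slc2a1*, the glucose transporter GLUT1 (2.46, 2.31 and 1.63), and *Hif1a*, the oxygen-regulated transcription factor (1.75, 1.40 and 1.01). *Nrp2* and *Slc2a1* were at 20.5 and 13.1 CPM in control and passed the 25 CPM limit only through the vehicle pool, so the count and median are no support for a change of the list. In entospletinib over vehicle, *Slc2a1* and *Hif1a* were called lower at day 1 (-1.03 and -1.12) and day 7 (-1.55 and -1.12), where 1% and 3.09% of all genes compared were called lower. At day 7 *Slc2a1* was at 22.8 CPM in entospletinib and passed the limit only through the vehicle pool. None of the 4 was called at day 14 (all genes 1.53% lower), where the list's median was -0.81.

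The TGF-β list (29 genes, 14 to 17 compared) had 4 genes called higher in vehicle over control at day 1, 1 at day 7 and 1 at day 14 (all genes 7.81%, 4.76% and 3.6%), with medians of 0.30, -0.05 and -0.08. The counts at days 7 and 14 are near the share of all genes. The day 1 count includes *Tgfb3*, at 16.1 CPM in control, which passed the 25 CPM limit only through the vehicle pool. *Thbs1*, thrombospondin 1, which activates latent TGF-β and is abundant in platelets, was called at each day (5.02, 4.52 and 3.47), from 29.1 CPM in control to 1059.6, 539 and 305 CPM in vehicle. It was called lower in entospletinib over vehicle at each day (-2.12 ± 0.85, -3.58 ± 0.43 and -2.31 ± 0.89). The 5 platelet markers summed to 12.6 CPM in control, 244, 81.8 and 28.2 CPM in vehicle and 113, 34.5 and 36.0 CPM in entospletinib in the same cells, with *Gp9* at 0 in 6 of 7 conditions and *Gp1bb* in 2, and their part in the *Thbs1* values was not tested. *Tgfbi*, a TGF-β-induced matrix protein, was called higher at day 1 (2.18 ± 0.13). *Tgif1*, a SMAD co-repressor, was called lower in entospletinib over vehicle at day 7 (-1.02 ± 0.27).

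In the EGF family list (14 genes, 5 or 6 compared) *Nrg1*, a ligand of ERBB3 and ERBB4, was called higher in vehicle day 7 over control (4.95 ± 1.76, 114 CPM against 4.53), passing the limit only through the vehicle pool. It was called lower in entospletinib over vehicle at day 7 (-4.00 ± 1.72) and day 14 (-1.44 ± 0.62), at 9.09 and 16.5 CPM in entospletinib, and here too passed the limit only through the vehicle pool. In the PDGF list (6 genes, 1 or 2 compared) *Lrp1*, an endocytic receptor, was called higher in vehicle at day 1 (2.22) and day 7 (1.63) and lower in entospletinib over vehicle at day 7 (-1.01). In the IGF and growth hormone list (20 genes, 5 or 6 compared) *Irs2*, an adaptor of the insulin and IGF1 receptors, was called higher at vehicle day 14 (1.09 ± 0.16). In the list of other repair ligands (17 genes, 1 or 2 compared) *Grn*, progranulin, was called higher at vehicle day 14 (1.14 ± 0.19). Other calls, named after their values were seen, were in vehicle over control *Insr* (-1.46), *Tgfb3* (1.41) and *Rhbdf2* (1.51) at day 1, and *Rhbdf2* (1.02) and *Irs2* (1.02) at day 7. *Tgfb3*, of the TGF-β list, was at 16.1 CPM in control and passed the limit only through the vehicle pool.

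Macrophage-gated cells were also divided by 2 marker lists that hold no member: a resident side (*Slco2b1*, *Agmo*, *Cx3cr1*, *Arhgap22*, *Hpgd*, *Cd81* and *Siglec1*) and an injury side (8 markers, among them *Mmp12*, *Plau*, *Spp1*, *Gpnmb*, *Fabp5*, *Trem2* and *Fn1*). The injury side took 1.76% of these cells in control, 20.3%, 15.6% and 7.01% in vehicle and 9.32%, 3.46% and 4.46% in entospletinib at days 1, 7 and 14. *Vegfa* averaged 161 ± 35.2 CPM on the injury side and 12.3 ± 2.39 CPM on the resident side, a 13.1-fold difference with the injury side higher in 7 of 7 conditions. *Hbegf* had the same order in 7 of 7 (13.8 ± 6.71 CPM against 4.18 ± 1.28 CPM), but on 1 count on the injury side in control and 1 in entospletinib day 7. *Tgfbr1* was at 1816 ± 67.2 CPM on the resident side and 1032 ± 172 CPM on the injury side, and *Tgfbr2* at 526 ± 8.98 CPM and 283 ± 26.4 CPM, each higher on the resident side in 7 of 7 conditions. *Pdgfb* was at 233 ± 9.66 CPM and 144 ± 37.9 CPM, with the resident side higher in 6 of 7. *Igf1* (80.5 ± 6.12 CPM and 61.8 ± 25.8 CPM) and *Tgfb1* (198 ± 6.86 CPM and 221 ± 34.3 CPM) did not differ between the sides beyond the spread.

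Within the resident side *Tgfbr1* was at 3086 CPM in control, 1831, 954 and 1079 CPM in vehicle and 1838, 2106 and 1814 CPM in entospletinib at days 1, 7 and 14. Its relative log2 ratios for vehicle over control were -0.94, -1.43 and -1.45, of which days 7 and 14 were called. On the injury side they were -2.28, -2.33 and -1.55, all called, with 62 cells in the control. *Vegfa* on the resident side was at 3.13 CPM in control, 10.7, 19.3 and 31.1 CPM in vehicle and 6.48, 5.12 and 10.6 CPM in entospletinib, below the level for a call. On the injury side it was at 32.3 CPM in control, 154, 395 and 224 CPM in vehicle and 64.0, 178 and 80.8 CPM in entospletinib, from 6 counts in control. On both sides the vehicle pool was above the entospletinib pool at each day. *Igf1* was called higher in vehicle than in control at all 3 days within the resident side (1.31, 1.02 and 1.16), while its ratios on the injury side (-0.43, 0.75 and 1.55) rest on 9 counts in control.

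**Figure D5:**
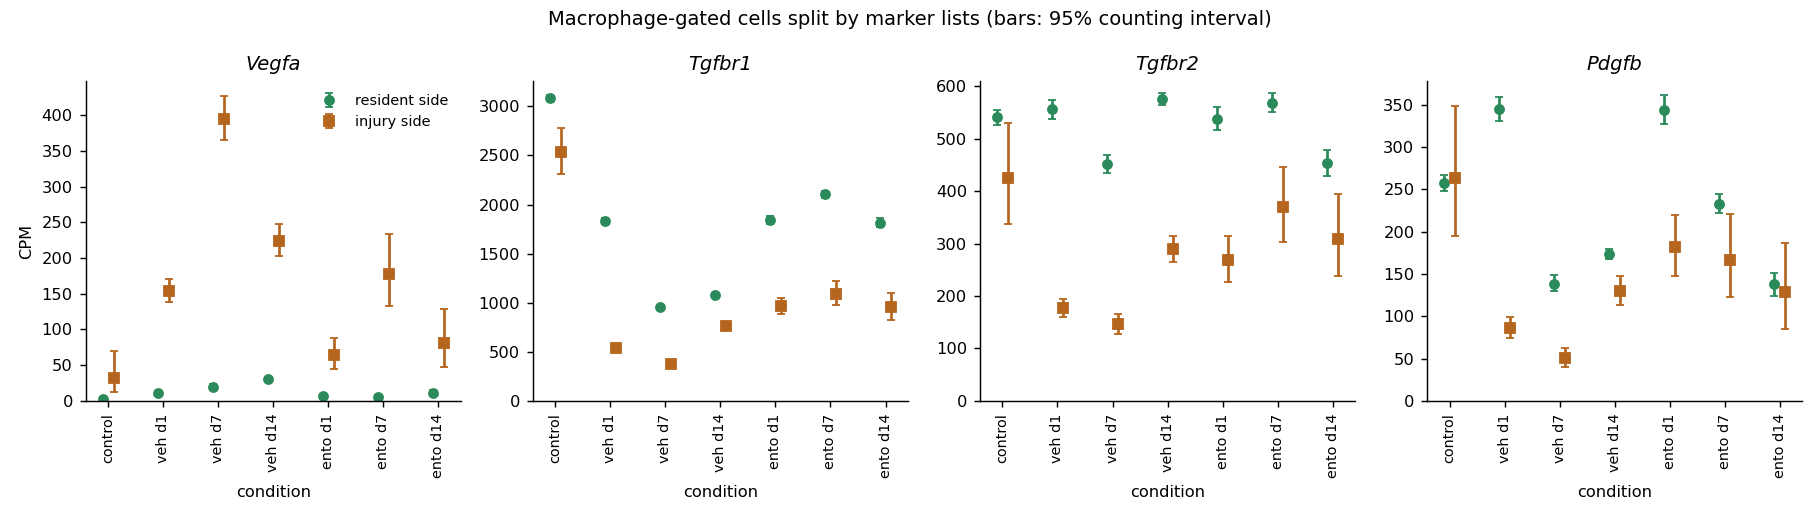
CPM of *Vegfa*, *Tgfbr1*, *Tgfbr2* and *Pdgfb* in macrophage-gated cells of the resident side and injury side of each condition, with 95% counting intervals. *Vegfa* is higher on the injury side, and *Tgfbr1* and *Tgfbr2* on the resident side, in 7 of 7 conditions.

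The genes most like each member were sought over 74 sums of a class in a condition (at least 50 cells each) among 9009 genes, by Pearson's r of log2(CPM + 10). The sums share pools, sublibraries and depth, so r is a description. *Igf1* was most like *Plxna4* (0.91), *2610203C22Rik* (0.90) and *Pmp22* (0.89), and *Ghr* like *Nectin3* (0.96), *Ptprk* (0.96) and *Pawr* (0.95). *Tgfb1* was most like *Stk10* (0.92), *Abcg1* (0.90) and *Elmo1* (0.90), and *Tgfbr2* like *Uba7* (0.87), *Fli1* (0.86) and *Rcsd1* (0.85). For *Tgfbr1* they were *Siglec1* (0.83), *Ms4a14* (0.82) and *Fcgr1* (0.81), of which *Fcgr1* is a marker of the macrophage gate and *Siglec1* of the resident side. *Vegfa* was most like *Neat1* (0.79), *Sod2* (0.79) and *Fam20c* (0.76), and *Pdgfb* like *Dennd2c* (0.79), *Plxna4* (0.78) and *Cntln* (0.77). *Hbegf* was most like *Cttn* (0.85), *Adamts1* (0.84) and *Lama5* (0.82), and *Egf* like *Ppp1r1a* (0.92), *Wfdc15b* (0.91) and *Ppp1r1b* (0.91). *Vegfb* was too low for this.

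In the GENCODE annotation of mm10 the members are protein-coding genes: *Igf1* at chr10:87858265-87937042, *Ghr* at chr15:3317760-3583492, *Tgfb1* at chr7:25687002-25705077, *Tgfbr1* at chr4:47353222-47414931, *Tgfbr2* at chr9:116084293-116175360, *Vegfa* at chr17:46016993-46032369, *Vegfb* at chr19:6982473-6987651, *Pdgfb* at chr15:79995874-80014977, *Hbegf* at chr18:36504927-36515805 and *Egf* at chr3:129677565-129755316. Antisense genes overlap *Igf1* (*Igf1os*, 504 counts over all barcodes), *Pdgfb* (*Gm41361*, 1112 counts) and *Egf* (*Gm42697*, *Gm42650* and *6330410L21Rik*, 372, 73 and 241 counts). *Igf1*, *Pdgfb* and *Egf* had 8417, 26805 and 23936 counts in the cells that passed the limits. Whether the counting used strand is not given in the sources used here, so reads of such a pair may not have been told apart.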

How the data were processed

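Single cells were sorted from kidneys, barcoded by combinatorial indexing (Parse Evercode) and sequenced as 8 sublibraries. The authors made the deposited counts (whole molecules per gene and cell) with the Parse pipeline version 1.1 on mm10. The annotation release and strand setting are not given in the sources used here. The labels describe sublibraries that each mix all conditions, so a cell's condition was taken from the deposited cell table. The summed counts equalled the deposited transcript count for all 120281 barcodes. No whole barcode was repeated, but 28653 (23.8%) shared their 3 wells with a barcode of another sublibrary.

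Cells with more than 300 genes, fewer than 20000 counts, under 25% mitochondrial and under 1.5% ribosomal protein gene counts were kept, with the limits of the study's methods. Ribosomal protein genes were taken by name here (426 genes), and the 79389 cells kept of 120281 barcodes are fewer than the study shows, for a reason that was not tested. A cell was given the class with most distinct markers detected (at least 2). Where the second class had over 50% of that number it was set aside as mixed, which was the only treatment of doublets. Counts were summed per class and condition and scaled to CPM here, with exact Poisson and binomial 95% intervals. A call needed a mean of 25 CPM, a relative ratio of 2-fold and the same side in all 8 sublibraries (0.5 counts added). Replicate animals were pooled, so no p-value was computed. The genes named were the 10 members and, per comparison, at most the 6 pathway genes with the largest called ratio, and genes named beyond these are given as chosen after their values were seen. Alternatives were other cell limits, gates, depth, scaling, CPM filters, sides of the macrophages and leaving out each sublibrary, and 2 more (a likelihood gate and cells with no marker of another class) were chosen after seeing the data. The members and lists were chosen with earlier results of these data known. Some genes of the lists are not reported here. The call procedure was tested on simulated data. Tools were Python 3.11.15, numpy 2.4.6, scipy 1.17.1, pandas 2.3.3, matplotlib 3.10.9, R 4.3.3 and edgeR 4.0.16, used for TMM factors only.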

Additional observations from a re-analysis of the deposited data

Results flagged for a closer look

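In 49 sets of 8 sublibraries (a member in macrophage-gated cells of a condition), 6 held a sublibrary that stood far from the other 7, where chance gives about 1 in 20. *Igf1* in vehicle day 1 was at 151 CPM in sublibrary s3, with the next at 113 CPM. *Tgfb1* in vehicle day 7 was at 129 CPM in s3, with the next at 183 CPM. *Tgfbr1* in entospletinib day 14 was at 2089.5 CPM in s6, with the next at 1804 CPM. *Pdgfb* in vehicle day 7 was at 71.1 CPM in s4 (next 114 CPM), and in vehicle day 14 at 188 CPM in s1 (next 171 CPM). *Egf* in entospletinib day 7 was at 179 CPM in s2, with the next at 94.0 CPM.

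*Tgfbr2* in macrophage-gated cells had opposite signs at different days in all 8 sublibraries. With entospletinib compared with vehicle, the relative log2 ratios were 0.27 (day 1) and 0.22 (day 7), against -0.39 (day 14). The difference between days was not tested.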

How the results depend on the processing

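No analysis paired by animal was possible because each condition is 1 pool of mice. The 8 sublibraries each hold all conditions, so comparisons within a sublibrary cover technical error only. The 1260 ratios of members under the alternatives include runs that leave out only 1 sublibrary and members under 25 CPM, so their counts are no measure of robustness. Of these ratios, 1121 moved by less than the spread between sublibraries, 136 moved by more and 3 reversed. The 3 were all of ratios that had been called: *Igf1* in vehicle day 1 over control on the injury side (-0.43), *Egf* in vehicle day 14 over control on the injury side (0.58), and *Egf* in entospletinib over vehicle at day 7 in cells with no marker of another class (-0.33). Ratios that were not called also changed sign and are not among the 3. *Igf1* in entospletinib over vehicle at day 1, for instance, was negative in macrophage-gated cells as a whole and 0.03 on the injury side. The causes were not tested.

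Members called numbered 4, 3 and 4 in vehicle over control at days 1, 7 and 14 and 1, 2 and 1 in entospletinib over vehicle. Leaving out each sublibrary gave 3 to 4, 3 to 3, 4 to 4, 1 to 1, 2 to 3 and 1 to 1. For vehicle day 1 over control the count was 2 after thinning, 2 with a filter of 50 CPM, 2 on the resident side, 1 on the injury side and 0 in cells with no marker of another class. For vehicle day 7 it was 5 with no CPM filter and 0 in cells with no marker of another class. For vehicle day 14 it was 2 with a filter of 50 CPM, 1 on the injury side and 2 in cells with no marker of another class. For entospletinib over vehicle at day 1 it was 0 with a filter of 50 CPM, on the resident side, on the injury side and in cells with no marker of another class. At day 7 it was 1 after thinning, with a filter of 50 CPM, on the resident side, with the likelihood gate and in cells with no marker of another class, and 4 with no CPM filter. At day 14 it was 2 with mixed cells kept, after thinning and with TMM scaling, 3 with no CPM filter, and 0 with a filter of 50 CPM, on the resident side and on the injury side. The tubule classes hold as few as 26 cells per pool, and whether the number of cells or their depth limited them was not tested. *Ghr*, *Vegfb* and *Hbegf* were under 25 CPM in macrophage-gated cells, so no call was made for them at that limit.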
